A study of Homo sapiens with 4 samples.

Results

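The genes described here drive the entry of a cell into S phase and copy its DNA. They were taken as 41 listed symbols, from cyclin E and its kinase through the replicative helicase to the polymerases, the sliding clamp, nucleotide supply and histone supply. Each symbol was matched to 1 Ensembl gene, so 41 of the 26518 genes in the deposited table were members. RNA-seq had been performed on MDA-MB-468 cells, an established line of human triple-negative breast cancer. Stable puromycin-selected lines carried either a pGIPZ control vector (shControl, 2 libraries) or an shRNA lentivirus that depletes the SAM and SH3 domain scaffold SASH1 (shSASH1, 2 libraries). All cells were thus virus-infected, grown under puromycin selection and kept in DMEM with serum. The labels speak of stable clones but do not say how many clones or hairpins a library represents, nor whether the 2 libraries of a group were separate cultures. The p-values therefore reflect the spread among these 4 libraries only, and that spread could be technical.

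DNA replication begins in G1, when the origin recognition complex, CDC6 and CDT1 load the MCM2 to MCM7 ring onto DNA. Cyclin E with CDK2, and the kinase CDC7 with its partner DBF4, then switch the loaded rings on with CDC45 and the GINS complex, and polymerases held by the PCNA clamp copy the strands. Transcription of most of these genes is driven by E2F factors, which the retinoblastoma protein RB1 restrains. MDA-MB-468 is known as a line that has lost RB1 function.

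SASH1 itself, the depleted gene, stood at 15 and 13 TPM in shControl and at 3.65 and 4.01 TPM in shSASH1. TPM allows for the length of each gene and the total of each library, and it keeps no read depth, which is unknown here. The 4 libraries summed to between 910830 and 926711 TPM. Across genes, Pearson's r of log2(TPM + 1) was 0.988 within shControl, 0.975 within shSASH1 and 0.924 to 0.942 across groups; genes are not independent replicates. Epithelial markers summed to 6339 and 6583 TPM in shControl and to 6185 and 4920 TPM in shSASH1. The fibroblast list summed to 6.34 to 11 TPM, nearly all of it COL1A1 with COL1A2 and LUM at 0 in every library, and the endothelial list to 3.08 to 3.96 TPM. In the immune list only CD14 was above 1 TPM, at 33.2, 39.9, 33.3 and 96.5 TPM, while the pan-leukocyte gene PTPRC was at 0 in shControl and at 0.0831 and 0.104 TPM in shSASH1.

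Every member was expressed and entered the test, for which a gene needed to average 1 TPM or more. With limma at an adjusted p of 0.05, 8 of the 41 members were higher in shSASH1, 6 were lower and 27 were not called. The higher members were CDK2, E2F2, E2F3, CDC6, CDT1, CDC7, UNG and CHAF1B. The lower members were CCNE1, MCM5, MCM7, DBF4, POLA1 and PCNA. Of all 14458 tested genes 32.0% were called, 18.8% higher and 13.3% lower, so the 34.1% of members called is close to the background and is no property of the group. The median log2 change of the members was -0.072, beside 0.056 over all tested genes, and the median absolute change was 0.23 beside 0.31. All changes given are differences of log2(TPM + 1). In bulk RNA a different share of cells in S phase and a different level per cell cannot be told apart. After quantile normalization 5 members were higher and 11 lower, against 15.8% and 16.8% of all tested genes (32.6% in either direction), so the balance of directions depends on the scaling. With no filter on low values CCNE1, E2F2, MCM7, POLA1 and PCNA remained called, where 8.36% of all genes were, and without a variance trend so did CDK2, E2F3 and CDC7 beside them, where 26.0% were. CDC6, CDT1, MCM5, DBF4, UNG and CHAF1B passed under neither. CCNE1, E2F2, MCM7 and POLA1 passed under every filter, scaling, centring and variance model fitted to all 4 libraries. Without shControl replicate 1 or replicate 2 limma called 0 members and 0 of all tested genes; at an unadjusted p under 0.05 it found 10 and 9 members, and 23.8% and 23.0% of all tested genes. Without shSASH1 replicate 1 it called 15 members higher and 12 lower, beside 31.4% and 22.0% of all tested genes. Without shSASH1 replicate 2 it called 10 higher and 11 lower, beside 22.7% and 18.1%.

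**Figure D1:**
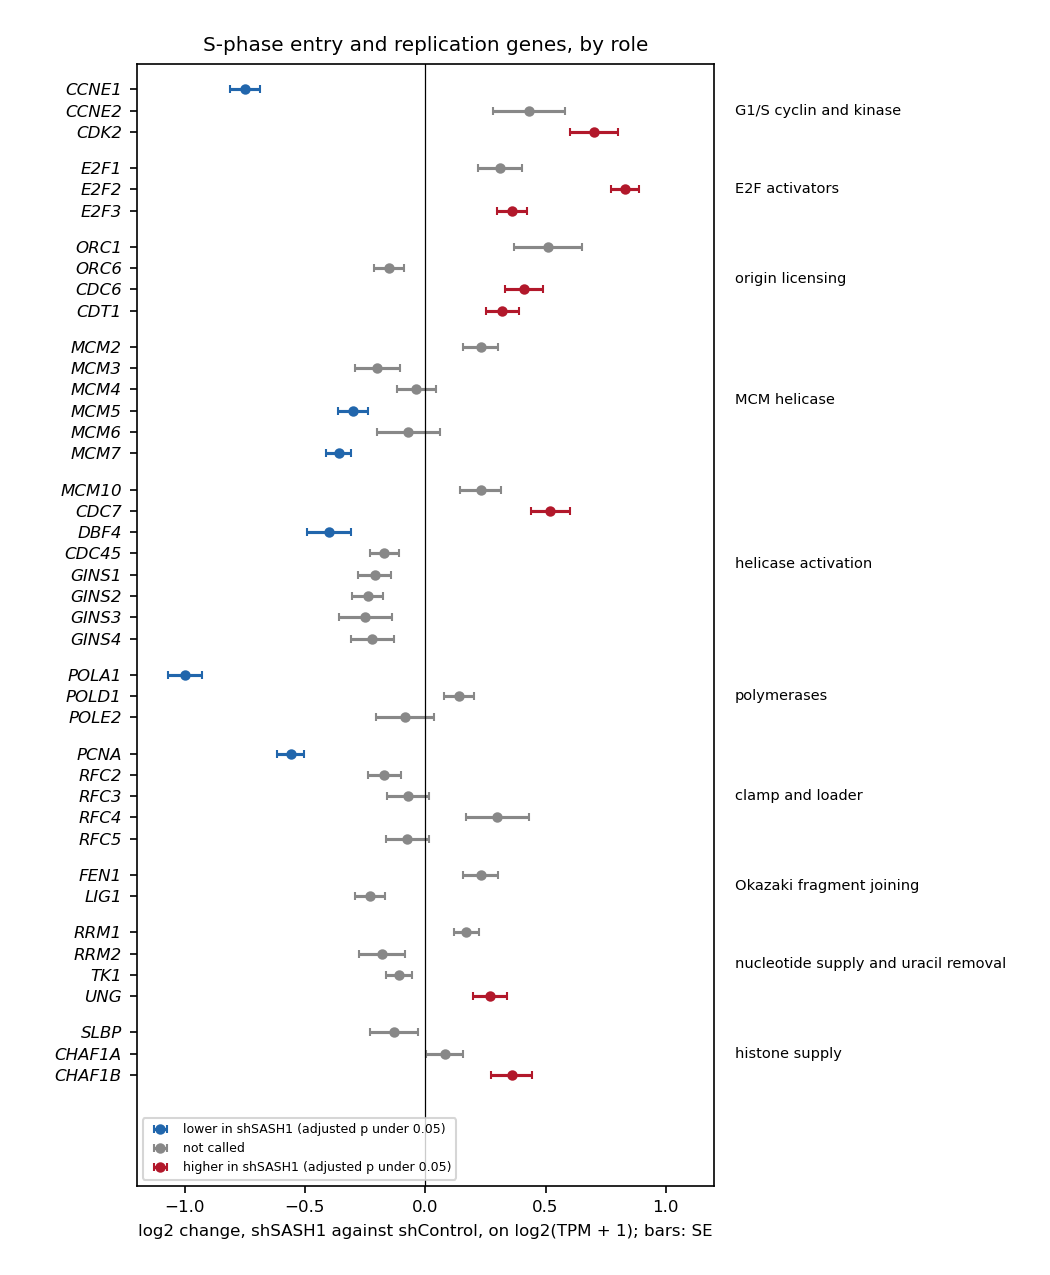
Log2 change of each of the 41 members between shSASH1 and shControl (x axis, on log2(TPM + 1); bars are SE from limma, 2 libraries per group), grouped by role. Red members passed as higher (8), blue as lower (6) and grey were not called (27); POLA1 lies farthest to the left at -1.00 and E2F2 farthest to the right at 0.83.

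Promoter sequence was examined next. Windows from 250 bases before to 50 after the transcript start, taken from RefSeq on GRCh38.p14, were found for 36 of the 41 members and not for CCNE2, CDK2, MCM4, MCM5 and GINS4. They were searched on both strands for the E2F-type strings TTTCCCGC, TTTGGCGC, TTTCGCGC and TTTGCCGC. At least 1 string was present in 17 of 36 members (47.2%), in 5.29% of 10911 tested genes with such a window and in 3.33% of all 27305 windows. It was also in 15 of 60 promoters of other replication genes (25%) and in 10% of 30 promoters of G2 and mitosis genes. In the latter the string TTTGAA, the core of the cell cycle homology region of mitotic genes, was in 60%, beside 8.33% of the members, 6.67% of other replication genes, 9.73% of tested genes and 15.4% of all windows, so the members' share is close to that of tested genes. The members that rose and those that fell both carried E2F-type strings, in 4 of 7 and 3 of 5 promoters. A match is a description of letters and not a binding site.

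The promoters of the 4 called members with the largest changes that had a window are printed to show how these strings sit near the start. Capitals mark an E2F-type string on either strand. The window of POLA1 is chrX:24693668-24693967 (plus strand), that of E2F2 is chr1:23531184-23531483 (minus strand), that of CCNE1 is chr19:29811741-29812040 (plus strand) and that of PCNA is chr20:5126573-5126872 (minus strand).
POLA1: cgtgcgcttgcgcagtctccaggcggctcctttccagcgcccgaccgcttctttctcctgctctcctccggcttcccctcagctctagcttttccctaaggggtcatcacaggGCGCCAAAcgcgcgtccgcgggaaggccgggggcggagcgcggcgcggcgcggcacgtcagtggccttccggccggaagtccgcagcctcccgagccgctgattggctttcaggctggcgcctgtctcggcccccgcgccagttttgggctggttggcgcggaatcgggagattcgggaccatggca
E2F2: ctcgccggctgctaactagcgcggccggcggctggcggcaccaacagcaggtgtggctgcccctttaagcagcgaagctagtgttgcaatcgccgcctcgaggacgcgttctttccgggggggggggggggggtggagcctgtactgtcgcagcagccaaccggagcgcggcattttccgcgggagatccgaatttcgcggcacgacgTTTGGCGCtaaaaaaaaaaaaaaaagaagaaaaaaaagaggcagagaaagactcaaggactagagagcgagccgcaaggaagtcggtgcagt
CCNE1: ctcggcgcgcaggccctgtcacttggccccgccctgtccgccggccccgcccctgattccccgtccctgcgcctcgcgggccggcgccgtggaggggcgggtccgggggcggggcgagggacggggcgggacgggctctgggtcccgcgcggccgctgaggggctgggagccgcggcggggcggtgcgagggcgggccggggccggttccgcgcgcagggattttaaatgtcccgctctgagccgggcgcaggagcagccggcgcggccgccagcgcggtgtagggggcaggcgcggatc
PCNA: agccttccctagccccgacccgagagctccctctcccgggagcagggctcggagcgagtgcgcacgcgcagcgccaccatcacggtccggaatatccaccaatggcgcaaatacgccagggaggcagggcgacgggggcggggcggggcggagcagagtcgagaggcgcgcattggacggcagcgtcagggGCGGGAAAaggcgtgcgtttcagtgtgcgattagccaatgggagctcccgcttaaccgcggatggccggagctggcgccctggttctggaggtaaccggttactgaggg
The match began 137 bases before the start in POLA1, 42 bases before it in E2F2 and 59 bases before it in PCNA. CCNE1 held none of the 4 strings in this window, and held GGGCGG, the core of the GC box, at 7 places counted on both strands. That string was in 77.8% of the members, 71.7% of other replication genes, 76.7% of G2 and mitosis genes, 68.7% of tested genes and 44.6% of all windows, and so is common to expressed genes. PCNA held the CCAAT string at 3 places, a string found in 52.8% of the members, 55% of other replication genes, 70% of G2 and mitosis genes, 36.8% of tested genes and 35.7% of all windows.

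At the G1 to S switch, the cyclin fell while its kinase rose. CCNE1, cyclin E1 (chromosome 19, 29811898 to 29824308, plus strand), stood at 63.7 and 64.4 TPM in shControl and at 38.4 and 37 TPM in shSASH1. Both depleted libraries were far below both controls, and the replicates of each group lay close together. The mean went from 64 ± 0.512 to 37.7 ± 0.974 TPM (SD over 2 libraries each), or 0.589 times the control level (log2 change -0.75 ± 0.063 SE, limma adjusted p = 0.00412). CDK2, the kinase that cyclin E activates (chromosome 12, 55966769 to 55972784), went the other way, from 26.8 and 28.8 TPM to 43 and 49 TPM. Its ratio of means was 1.66 (log2 change 0.70 ± 0.10, adjusted p = 0.0101). The ratio of CDK2 to CCNE1 TPM thus went from 0.42 and 0.448 to 1.12 and 1.32. CCNE2, the second E-type cyclin (chromosome 8, 94879770 to 94896678), was at 14.6 and 12.8 TPM in shControl and 16.6 and 21.1 TPM in shSASH1. It was not called (log2 change 0.43 ± 0.15, adjusted p = 0.09), although the groups did not overlap. Of its 4397 exon bases 1629 also belong to INTS8 on the opposite strand, so part of its reads cannot be assigned without strand. The E-type cyclins together gave 78.3 and 77.1 TPM in shControl and 55 and 58.1 TPM in shSASH1, and the CCNE1 share of that sum was 81.4% and 83.5% against 69.8% and 63.7%.

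**Figure D2:**
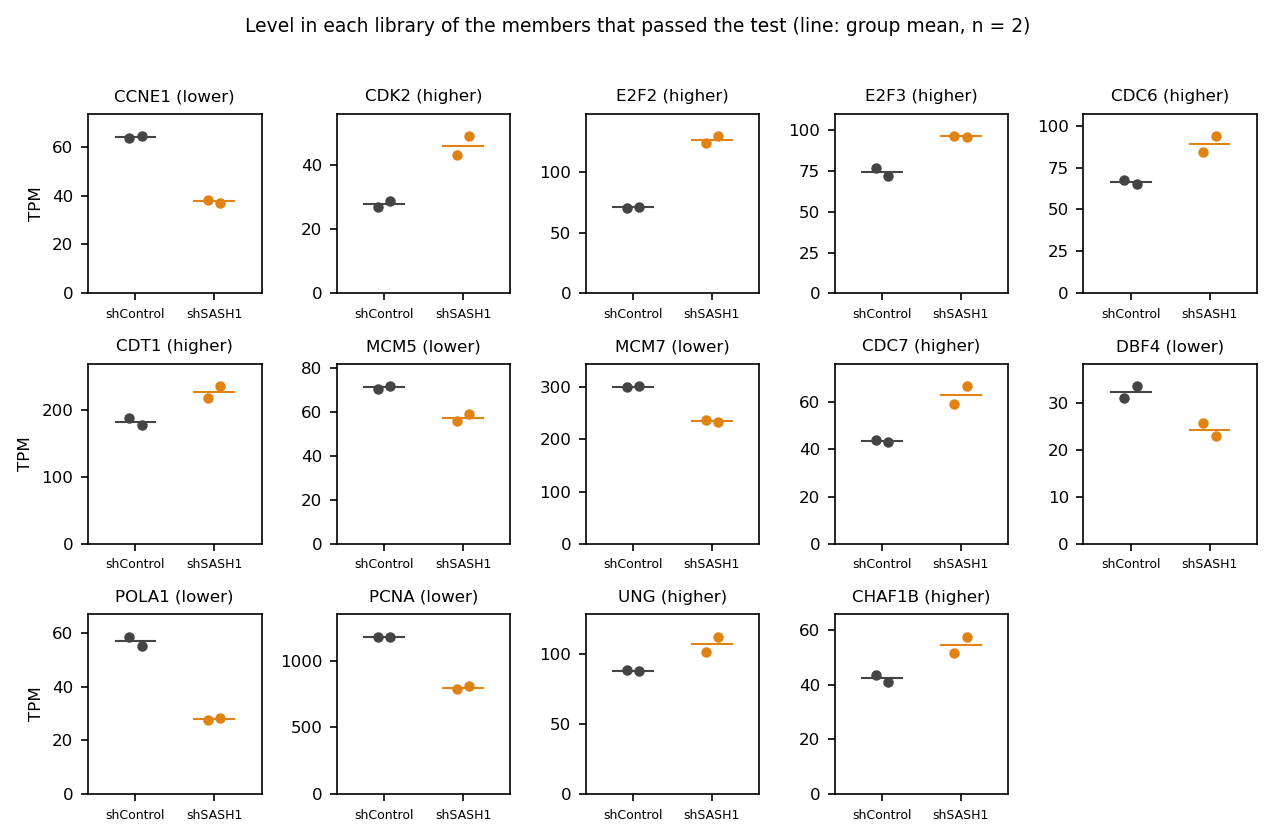
Level in TPM (y axis, from 0) of the 14 members that passed the test, in each of 2 shControl (dark) and 2 shSASH1 (orange) libraries; each point is 1 library and the line is the group mean. The members shown were selected by the test on these same libraries, so the lack of overlap in all 14 panels is no separate support. Groups did not overlap in 73.6% of all tested genes. CCNE1 lies at 63.7 and 64.4 TPM in shControl and at 38.4 and 37 TPM in shSASH1.

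The activating E2F factors all had higher values in shSASH1, and 2 of the 3 passed. Of all 14458 tested genes 7990 had a positive change and 18.8% were called higher. E2F2 (chromosome 1, 23506430 to 23531220, minus strand) went from 70.9 and 71.6 TPM to 124 and 130 TPM. This was the largest rise among the members, by a ratio of 1.79 (log2 change 0.83 ± 0.059, adjusted p = 0.00313). E2F3 (chromosome 6, 20401906 to 20493715) went from 76.8 and 72.1 TPM to 96.4 and 95.9 TPM (log2 change 0.36 ± 0.062, adjusted p = 0.0172). E2F1, the most abundant of the 3 (chromosome 20, 33675683 to 33686404), was at 162 and 148 TPM in shControl and at 180 and 206 TPM in shSASH1. Its groups did not overlap, but its change was not called (0.31 ± 0.092, adjusted p = 0.0644). Summed, E2F1 to E2F3 gave 310 and 292 TPM in shControl and 400 and 432 TPM in shSASH1, with E2F2 holding 22.9% and 24.5% of it in shControl and 31% and 30.2% in shSASH1. RB1, the repressor of these factors, was at 1.59 and 1.24 TPM in shControl and 2.43 and 1.95 TPM in shSASH1 and was not called (adjusted p = 0.201).

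Of the origin licensing genes, both helicase loaders rose. CDC6 (chromosome 17, 40287633 to 40304657), the ATPase that recruits the MCM ring, went from 67.7 and 65.3 TPM to 84.1 and 93.8 TPM (log2 change 0.41 ± 0.078, adjusted p = 0.0215). CDT1 (chromosome 16, 88803213 to 88809258), which delivers the ring, went from 187 and 177 TPM to 217 and 235 TPM (0.32 ± 0.068, adjusted p = 0.03). GMNN, the inhibitor of CDT1, was chosen for mention after its values were seen. It was at 206 and 199 TPM in shControl and at 228 and 252 TPM in shSASH1, not called (adjusted p = 0.064), and the ratio of CDT1 to GMNN lay between 0.89 and 0.955 in the 4 libraries. ORC1, the largest subunit of the origin recognition complex, was at 44.5 and 40.9 TPM in shControl and at 54 and 69.7 TPM in shSASH1. The shSASH1 libraries both lay above the controls but far from each other, and the change just missed the threshold (0.51 ± 0.14, adjusted p = 0.0519). ORC6, a smaller subunit, had a change of -0.15 ± 0.061 and was not called (adjusted p = 0.124).

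Of the 6 subunits of the replicative helicase ring, 2 fell and 4 were not called, where 13.3% of all tested genes were called lower. MCM7 (chromosome 7, 100092728 to 100101940, minus strand) was at 301 and 302 TPM in shControl and at 237 and 234 TPM in shSASH1 (log2 change -0.36 ± 0.051, adjusted p = 0.0113). MCM5 (chromosome 22, 35400063 to 35425430) went from 70.7 and 71.7 TPM to 55.9 and 59.1 TPM (-0.30 ± 0.063, adjusted p = 0.0271). For both, all shSASH1 values were below all shControl values. MCM2 (chromosome 3, 127598223 to 127622436) stood at 46 and 42.9 TPM in shControl and at 53.5 and 51.1 TPM in shSASH1, in the opposite order, and was not called (0.23 ± 0.072, adjusted p = 0.0723). MCM3 was at 299 and 300 TPM in shControl and at 240 and 284 TPM in shSASH1 (adjusted p = 0.171). MCM4 and MCM6 overlapped between groups, with changes of -0.037 and -0.07. These proteins work as a ring with 1 copy of each, yet their transcripts differed several-fold within a library. On the TPM scale, which allows for gene length, MCM3 and MCM7 were highest, both at 299 to 302 TPM in shControl, followed by MCM6, MCM4, MCM5 and MCM2. In shSASH1 MCM3 and MCM7 were again highest, and the group means of the other members followed in the same order, with MCM5 and MCM2 at 57.5 ± 2.29 and 52.3 ± 1.71 TPM. MCM7 shares 392 of its 4386 exon bases with AP4M1 on the opposite strand, a gene with a mean of 14.3 TPM that fell by 1.08 on the log2 scale (SE 0.14, limma adjusted p = 0.0092). MCM7 exceeded MCM2 by 6.54 and 7.03 times in shControl and by 4.42 and 4.57 times in shSASH1. The 6 subunits summed to 994 and 993 TPM in shControl and to 828 and 922 TPM in shSASH1.

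**Figure D3:**
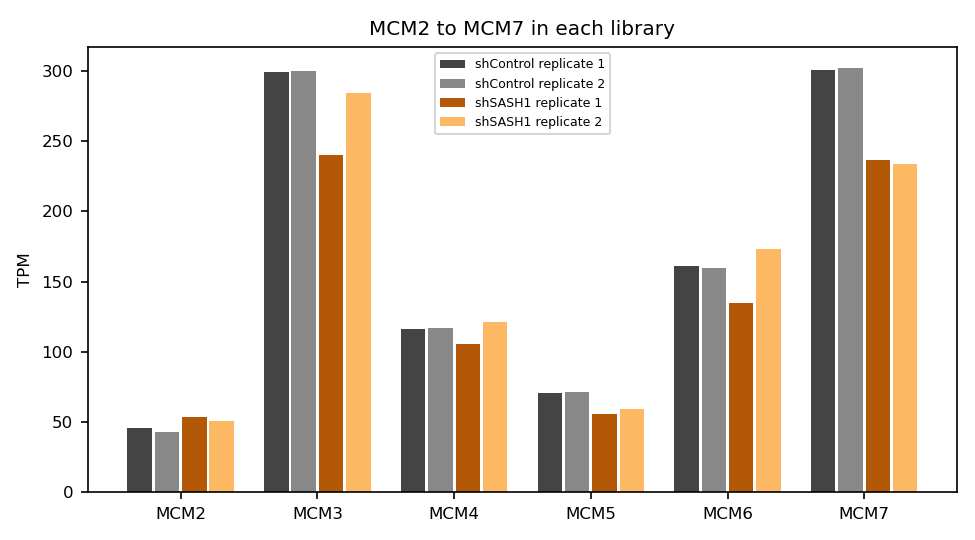
Level in TPM (y axis, from 0) of MCM2 to MCM7 in the 4 libraries, 1 bar per library. MCM3 and MCM7 stand at 299 to 302 TPM in shControl and MCM2 at 42.9 and 46 TPM; the shSASH1 replicates (brown and light orange) differ from each other in MCM3 and MCM6.

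Among the genes that turn the loaded helicase on, the kinase CDC7 was called higher and its activator DBF4 lower, and neither call held under every setting. CDC7 (chromosome 1, 91500893 to 91525764), the kinase that phosphorylates the MCM ring, went from 44 and 43.2 TPM to 59.5 and 66.8 TPM (log2 change 0.52 ± 0.081, adjusted p = 0.0138). DBF4 (chromosome 7, 87876216 to 87909541), an activating subunit of CDC7, went from 31.1 and 33.6 TPM to 25.7 and 23 TPM (-0.40 ± 0.093, adjusted p = 0.0363). CDC7 did not pass with no filter on low values (adjusted p = 0.072) or when centred on the genes of its 20 Mb chromosome window (0.11, adjusted p = 0.297). DBF4 did not pass with no filter (adjusted p = 0.119), without a variance trend (adjusted p = 0.0606) or with the replicate number as a block (adjusted p = 0.0634). The ratio of CDC7 to DBF4 TPM was 1.41 and 1.28 in shControl and 2.31 and 2.9 in shSASH1. MCM10, which helps the helicase start to unwind, was at 35.1 and 32.9 TPM in shControl and at 38.1 and 41.9 TPM in shSASH1 and was not called (adjusted p = 0.103). CDC45, which completes the active helicase, had a change of -0.17 (adjusted p = 0.0952). The 4 GINS genes, which form a complex of 1 copy each, had negative changes between -0.25 and -0.21, and 0 of the 4 passed (adjusted p from 0.0546 for GINS2 to 0.139 for GINS3). In each of them both shSASH1 values lay below both shControl values, and their sum was 164 and 165 TPM in shControl and 141 and 140 TPM in shSASH1. Groups failed to overlap in 34 of 41 members (82.9%) and in 73.6% of all tested genes. CDC45, GINS1 and GINS2 passed as lower after quantile normalization, with adjusted p of 0.0328, 0.0388 and 0.0213. Centred on their windows the same 3 had changes of 0.087, -0.11 and -0.12 and did not pass (adjusted p = 0.379, 0.317 and 0.261), so the sign of CDC45 depends on the centring.

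Among polymerase genes, POLA1 had the largest change of all members. It encodes the catalytic subunit of DNA polymerase alpha, which with primase starts every new strand (chromosome X, 24693919 to 24996986, plus strand). It was at 58.8 and 55.4 TPM in shControl and at 27.5 and 28.5 TPM in shSASH1. The means were 57.1 ± 2.42 and 28 ± 0.74 TPM, a ratio of 0.49 (log2 change -1.00 ± 0.071, adjusted p = 0.00313). POLA1 was the only member whose log2 change reached 1 in size in the test. The primase genes PRIM1 and PRIM2, named after their values were seen, had changes of -0.26 and -0.23 and were not called (adjusted p = 0.0877 and 0.129). POLD1, the catalytic subunit of polymerase delta, had a change of 0.14, and POLE2, a subunit of polymerase epsilon, one of -0.084, neither called (adjusted p = 0.14 and 0.622).

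PCNA, the clamp that keeps polymerases on DNA (chromosome 20, 5114953 to 5126626, minus strand), was the most abundant member and stood above 99.4% of all tested genes by its mean TPM. It measured 1182 and 1182 TPM in shControl and 787 and 812 TPM in shSASH1. The fall was large beside the replicate spread, from 1182 ± 0.169 to 800 ± 17.3 TPM (log2 change -0.56 ± 0.058, adjusted p = 0.00591). Because PCNA is so abundant, it decides the sum over all members. The 41 genes gave 5295 and 5176 TPM in shControl and 4749 and 5032 TPM in shSASH1. The 40 without PCNA gave 4114 and 3994 TPM against 3962 and 4220 TPM, with overlapping groups. The clamp loader subunits RFC2 to RFC5 were not called, with changes from -0.17 to 0.30, and together gave 323 and 306 TPM in shControl and 309 and 319 TPM in shSASH1. RFC1, the large subunit that completes this loader, was higher, at 54.6 and 50.2 TPM in shControl and 73.8 and 78.7 TPM in shSASH1 (0.53 ± 0.076, adjusted p = 0.0112). FEN1, the nuclease that trims the ends of lagging-strand fragments, was at 230 and 221 TPM in shControl and at 251 and 279 TPM in shSASH1 (0.23 ± 0.074, adjusted p = 0.0795). LIG1, the ligase that seals them, had the opposite value (-0.23 ± 0.061, adjusted p = 0.0507), and neither was called. With limma LIG1 passed as lower after quantile normalization (adjusted p = 0.0197) and median-of-ratios scaling (adjusted p = 0.0271). Centred on its window it did not pass (-0.16, adjusted p = 0.127).

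Of the nucleotide and histone supply genes, UNG and CHAF1B rose and the others were not called. RRM1, the large subunit of ribonucleotide reductase, was at 124 and 124 TPM in shControl and at 139 and 141 TPM in shSASH1 and was not called (log2 change 0.17 ± 0.052, adjusted p = 0.0671). Its partner RRM2, the subunit whose level rises in S phase, was not called either (-0.18, adjusted p = 0.196), nor was thymidine kinase TK1 (-0.11, adjusted p = 0.176). UNG, which removes uracil from DNA, rose from 88.1 and 87.6 TPM to 101 and 112 TPM (0.27 ± 0.070, adjusted p = 0.045). CHAF1B, a subunit of the assembly factor that places histones behind the fork, rose from 43.7 and 41 TPM to 51.6 and 57.6 TPM (0.36 ± 0.085, adjusted p = 0.0373), while its partner CHAF1A overlapped between groups (0.081, adjusted p = 0.45). SLBP, which binds the end of histone mRNAs, was at 180 and 175 TPM in shControl and at 147 and 178 TPM in shSASH1 and was not called (adjusted p = 0.368). UNG did not pass after median-of-ratios scaling (adjusted p = 0.0628), and UNG, CDT1 and CHAF1B did not pass after quantile normalization (adjusted p = 0.123, 0.058 and 0.075).

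Several members lie in chromosome regions whose genes were shifted together. For each member the median log2 change of the other tested genes in its 20 Mb window was taken. PCNA lies at 0 to 20 Mb of chromosome 20, where this median was -0.49 and 55 of 97 other genes were lower and 2 higher. Centred on the window, PCNA had a change of -0.07 and did not pass (adjusted p = 0.47). The 10 tested genes nearest to PCNA had a median nearer to 0, at -0.24, with 8 lower in value and 2 higher. POLA1 lies at 20 to 40 Mb of the X chromosome, where the median was -0.45 and 17 of 29 other genes were lower. It still passed when centred, at -0.50 (adjusted p = 0.0133), which is less than its plain change of -1.00. CDC7, at 80 to 100 Mb of chromosome 1, had a window median of 0.40 and one of 0.14 over its 10 nearest tested genes. Its change centred on the window was 0.11 and did not pass (adjusted p = 0.297). E2F3 (window 0.21), CHAF1B (window 0.20) and UNG (window 0.048) did not pass either, with centred changes of 0.15, 0.079 and 0.22 (adjusted p = 0.184, 0.398 and 0.066). E2F2, in a window at 0.28, kept a change of 0.52 (adjusted p = 0.0103). The 10 tested genes nearest to E2F2 had a median of 0.40, with 8 higher in value and 2 lower. This median was 0.48 for E2F3 and -0.39 for POLA1, each with the sign of the member's own change. It was -0.48 for CDT1 and 0.22 for MCM5, each opposite in sign to the member's own change. For CHAF1B and UNG it was 0.11 and -0.023. CCNE1, CDK2, CDC6, MCM7 and DBF4 lie in windows between -0.079 and 0.031 and passed with nearly the same values, -0.74, 0.75, 0.38, -0.33 and -0.36. CDT1, MCM5, E2F2 and POLA1 passed too, so 9 of the 14 called members remained called, and E2F1 and FEN1 were newly called (0.42 and 0.30). Close to MCM7 the genes differed from its window: its 10 nearest tested genes had a median of -0.31, 7 lower in value and 3 higher. For CCNE1, CDK2, CDC6 and DBF4 the median of the 10 nearest lay between -0.17 and 0.047. Of all genes 13.4% were higher and 12.2% lower after centring, beside 6 and 5 of the 41 members. DNA copy number was not measured.

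**Figure D4:**
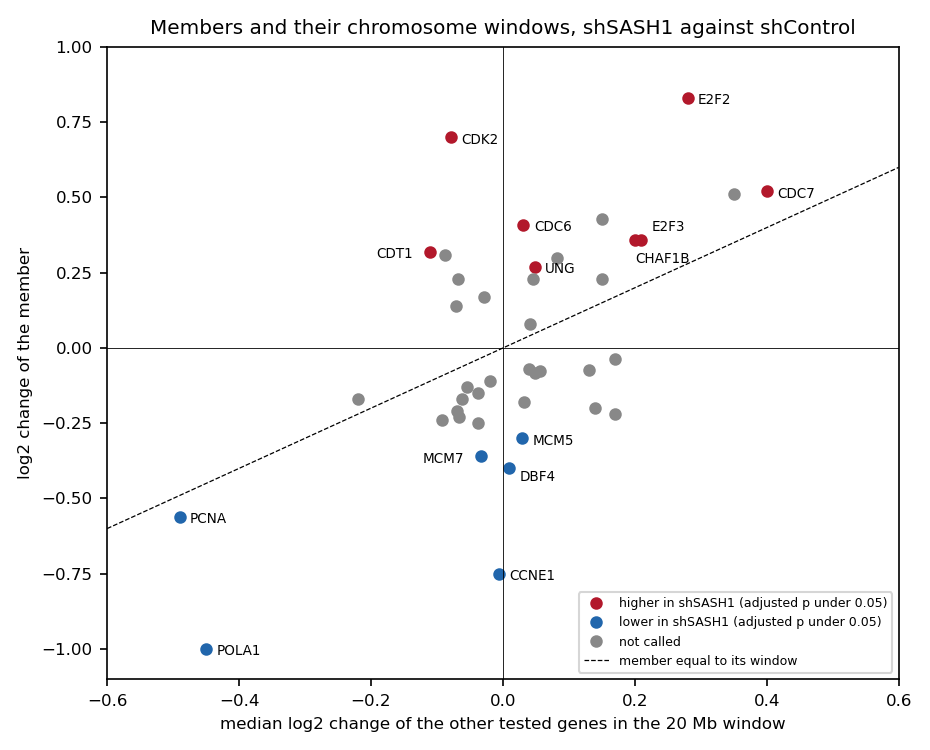
Log2 change of each member (y axis) against the median log2 change of the other tested genes in its 20 Mb window (x axis); 41 points, coloured by call as higher (red), lower (blue) or not called (grey). PCNA (-0.56 against a window at -0.49) lies near the dashed line of equality, while CCNE1 (-0.75) and CDK2 (0.70) lie far from it in windows near 0.

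Other replication genes, from lists of 74 names, gave a similar picture. Of these 73 were in the table and 72 were tested, and POLA2 is not analysed here. With limma 12 were higher and 9 lower (29.2%), beside 32.0% of all tested genes, with a median change of 0.0058. After quantile normalization 9 were higher and 17 lower, beside 15.8% and 16.8% of all tested genes. After window centring 6 were higher and 6 lower, beside 13.4% and 12.2% of all genes. In the origin list 2 of 14 were higher and 3 lower, led by MCM9 (-0.81), a helicase of repair, DONSON (0.59), TOPBP1 (0.44) and ORC3 (-0.41). Of 25 other fork genes 2 were higher and 4 lower, among them RNASEH2C (-0.78), DSCC1 (-0.70), RFC1 (0.53) and TIMELESS (-0.50). Of the 9 replication-coupled chromatin genes 4 were higher and 2 lower, beside 18.8% and 13.3% of all tested genes, and after window centring 1 and 1. UHRF1, which guides maintenance methylation to copied DNA, fell from 81.6 and 80.4 TPM to 42.2 and 28.6 TPM (-1.20 ± 0.19, adjusted p = 0.0146). DTL, the adaptor that marks CDT1 for destruction (0.67), and RBBP4 (0.56) rose and the histone chaperone ASF1A (-0.47) fell. Of 10 other nucleotide genes DTYMK (0.38) and CAD (0.29) rose, and of 14 E2F, DP and pocket protein genes LIN52 (0.67) and E2F4 (0.27) rose. Centred on their windows, TOPBP1, RFC1, RNASEH2C, CAD, UHRF1 and LIN52 still passed, and MCM9, DONSON, ORC3, DSCC1, TIMELESS, DTL, RBBP4, ASF1A, DTYMK and E2F4 did not.

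Upstream of cyclin E, 6 of 11 tested genes of the cyclin D, CDK4/6 and inhibitor list rose and 0 fell, beside 18.8% and 13.3% of all tested genes; after window centring 3 were higher and 1 lower. CDK6 rose from 8.69 and 8.04 TPM to 25.7 and 29.9 TPM (1.62) and cyclin D1 CCND1 from 90.1 and 93.3 TPM to 218 and 314 TPM (1.50). The inhibitors CDKN2B (1.13), CDKN2D (0.75), CDKN2A (0.62) and CDKN1B (0.39) rose as well, and CDKN1A was not called (-0.071). CDKN2A and CDKN2B lie in windows at 1.10 and 1.07. Centred on them CDKN2A passed as lower at -0.41 (adjusted p = 0.0207) and CDKN2B did not pass at 0.15 (adjusted p = 0.214). Their 10 nearest tested genes had medians of only 0.29 and 0.26, below the plain changes of both, so the call of CDKN2A as lower rests on the 20 Mb window. CDKN1B did not pass when centred (0.25, adjusted p = 0.133), after quantile normalization (adjusted p = 0.0804), after median-of-ratios scaling (adjusted p = 0.0654), with no filter (adjusted p = 0.12) or without a variance trend (adjusted p = 0.0626). Of 9 tested replication checkpoint genes, RAD1 (0.72; 0.23 when centred, adjusted p = 0.179), CLSPN (0.46; 0.15 when centred, adjusted p = 0.264) and CDC25A (0.43) rose. ATRIP and RAD9A are not analysed here.

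The shSASH1 replicates differed more than the controls did. Among members the median absolute log2 difference between replicates was 0.14 in shSASH1 and 0.06 in shControl, beside 0.18 and 0.072 over all tested genes. In shSASH1, replicate 2 lay below replicate 1 in 13 of 41 members, with a median difference of 0.07. It lay below in 6117 of 14458 tested genes (median 0.046), but in 36 of 37 G2 and mitosis genes (median -0.26). In shControl, replicate 2 lay below replicate 1 in 30 of 41 members (median -0.051) and in 7846 of 14458 tested genes (median -0.011). Among members the widest gaps were ORC1 (0.36), MCM6 (0.35) and RFC4 (0.34), all higher in replicate 2. Of the 37 G2 and mitosis genes 1 was higher and 4 were lower between groups, beside 18.8% and 13.3% of all tested genes. The called ones with the largest changes were HMMR (-1.11), CDC25B (-0.93), KIF23 (0.68) and TTK (-0.41). Centred on their windows CDC25B and KIF23 still passed, and HMMR and TTK did not. The proliferation marker MKI67 was not called, at 147 and 130 TPM in shControl and 121 and 98.5 TPM in shSASH1 (adjusted p = 0.0999). MKI67 was singled out after its values were seen. Epithelial markers were also lower in replicate 2 than in replicate 1, in 7 of 8 genes. The part of these differences in the members' values was not tested.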

How the data were processed

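RNA-seq of total RNA extracted with TRIzol, with NEBNext Ultra libraries per the labels' protocols, covered 2 shControl and 2 shSASH1 libraries, grouped by title. The authors deposited TPM per Ensembl gene. Per the submitters' processing notes, STAR, DESeq2 and hg38 were used, with no version or role named. The counter, annotation, gene lengths and strand setting are not given in the sources used. TPM keeps no depth, so no counting interval is given.

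All 26518 identifiers were found in GENCODE 29 on hg38, which gave symbols and 1-based coordinates. The 14458 genes averaging 1 TPM or more entered a two-sided test of log2(TPM + 1) by limma 3.58.1 (R 4.3.3; lmFit, then eBayes with trended variance, 2.54 prior degrees of freedom), with Benjamini-Hochberg adjustment over all tested genes at 0.05 and no replicate block. Permuting 2 against 2 libraries exactly cannot go below p = 0.333, so inference rests on the limma model. Each member's 20 Mb window was used where it held at least 20 tested genes. Centring subtracted, per library, the median deviation of the other genes of the window. The members, lists, tests and settings were chosen with earlier results of these data known. Named were SASH1, all members, up to 4 called genes per other list and RB1, CCND1, CDKN1A, CDKN1B and CDKN2A; GMNN, PRIM1, PRIM2 and MKI67 were added after their values were seen. Alternatives were a pseudocount of 0.1, other filters, scalings and variance models, window centring, a replicate block, a minimum log2 change of 1 in size, and each library left out. Python 3.11.15 with pandas 2.3.3 and matplotlib 3.10.9 was used for annotation, motifs and plots.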

Additional observations from a re-analysis of the deposited data

How the results depend on the processing

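Directions of the 14 called members were the same under all 12 other settings of the fit; their calls were not. Without a filter on low values 1199 genes were higher and 1018 lower over the table, 2 members were higher, and 3 and 3 other replication genes were higher and lower. This setting tests many more genes. When a log2 change of 1 or more in size was also required, 734 and 554 genes, 0 and 1 members (POLA1), and 0 and 1 other replication genes passed. After quantile normalization 5 members were higher and 11 lower, and 17 other replication genes were lower; the split over all genes went from 2712 higher and 1918 lower to 2280 and 2434. Without a variance trend 4 members and 5 other replication genes were higher, beside 2153 of all 14458 tested genes. Window centring left 6 other replication genes higher, where 13.4% of all genes were, and turned CDKN2A to -0.41.

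With a replicate block 5 members were higher and 4 lower, beside 2372 and 1557 of all 14458 tested genes. Of the 14 calls 9 remained, while CDT1, MCM5, DBF4, UNG and CHAF1B were not called. The titles give a replicate number and do not say whether same-numbered libraries were paired. Deviations of same-numbered libraries correlated at -0.0322 across genes, which cannot decide this with 2 libraries per group. Leaving out 1 library at a time gave 0 to 4543 genes higher and 0 to 3185 lower, 0 to 15 members higher and 0 to 12 lower, and 0 to 24 and 0 to 20 other replication genes. For SASH1 it gave log2 changes from -1.73 to -1.54, which did not pass without a shControl library (adjusted p = 0.106 and 0.104). With 1 library left in a group, the spread comes from the other pair alone, and the lone library is assumed to vary like it. The unknown depth limits what can be said of the precision of each TPM value.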
